A study of Homo sapiens with 9 samples.

Results

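The G2 and mitosis genes are 46 genes listed by name, which encode the cyclins, kinases, kinetochore and spindle proteins and cytokinesis factors that cells use to enter and complete division. Their read counts were followed in HEK293T, a continuously dividing line from human embryonic kidney, during heat stress and recovery. All 46 were found among 60664 annotated genes, on 18 chromosomes. The rule that lists them uses no measured value, but the list was chosen with earlier results of these data known. The cells were wild-type and were kept at 37 °C (NC, 2 libraries), held at 43 °C for 1 h (H1, 2 libraries), or returned to 37 °C after that hour for 1 h (H1R1, 2 libraries), 6 h (H1R6, 2 libraries) or 18 h (H1R18, 1 library). The labels name no agent other than heat, and NC was the only untreated group, so time in culture and time since heat cannot be told apart. HEK293T cells carry the SV40 large T antigen, which binds p53 and the pocket proteins of the RB family. H1R18 had no second library, and its tests borrowed the spread of the other conditions.

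Cells prepare for division in G2, when cyclins A and B accumulate and activate CDK1, the kinase that starts mitosis. Spindle microtubules then attach to kinetochores, and the spindle checkpoint holds back the anaphase-promoting complex until every chromosome is attached. Most of these transcripts are made in G2 and M and are low in the rest of the cycle, being repressed in G1 through the DREAM complex and driven in G2 by B-MYB and FOXM1. In RNA from a whole culture, fewer cells in G2 and mitosis and less RNA per cell cannot be told apart.

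The libraries held between 3814195 and 6221613 counts, and 45 of the 46 genes had enough counts to be tested. Each read of a pair was counted alone, so a fragment can add 2 counts. Between 81.8% and 87.5% of the non-zero counts in a library were even, and fragments are fewer than the counts given here. The exception was SPC25, a subunit of the NDC80 kinetochore complex, with 4 or fewer counts in any library. Its partner NDC80 had 98 to 168 counts. Counts of the other tested members apart from NUSAP1 lay between 67 and 4612. Per kilobase of exon the median member stood at 21.5 RPKM in NC, beside 3.66 RPKM for all 21139 genes tested, and levels ran from 0.350 RPKM for NUSAP1 to 109 RPKM for TOP2A. NUSAP1 (2 to 21 counts) and PRC1 (67 to 137 counts) share 81.4% and 61.9% of their exon bases with other annotated genes, and reads that fall on several genes were not counted. Their values are therefore uncertain, and 10 further members share between 2% and 16% of their exon bases. All 7 markers of HEK293 cells were counted, given as CPM, the counts of a gene scaled to a common library size. PAX2 stood at 6.26 to 14.6 CPM and VIM at 201 to 291 CPM. INA was lowest, at 0.353 to 2.00 CPM and at most 12 counts. VIM does not mark HEK293 alone, since the paper describes high vimentin in HeLa cells. The 7 hepatocyte genes that would mark Huh7, another line of the study, had at most 4 counts in any library. Of the 6 epithelial genes chosen for HeLa, CAV1 stood at 6.26 to 11.6 CPM and the other 5 at 3.13 CPM or less.

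Promoters of this class of gene often carry a CCAAT box, bound by NF-Y, and the cell cycle genes homology region (CHR), bound by the MuvB core of the DREAM complex. The promoters of BUB1, MKI67, ASPM and CDC20 are printed because these members had the lowest adjusted p-values at H1R6, the condition with most members called against NC. Each line gives 250 bases ending just before the first start that RefSeq lists for the gene, 5′ to 3′ on the gene's own strand, with coordinates of GRCh38.p14. Capitals mark CHR matches, searched as TTTGAA or TTCGAA, and CCAAT boxes, searched as CCAAT, both on either strand.
BUB1, chr2:110678064-110678313 (minus strand): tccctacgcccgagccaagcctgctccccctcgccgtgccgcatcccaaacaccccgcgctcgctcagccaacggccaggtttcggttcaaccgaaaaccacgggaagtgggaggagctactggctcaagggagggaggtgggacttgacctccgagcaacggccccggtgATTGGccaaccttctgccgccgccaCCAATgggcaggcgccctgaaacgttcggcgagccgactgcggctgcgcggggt
MKI67, chr10:128126424-128126673 (minus strand): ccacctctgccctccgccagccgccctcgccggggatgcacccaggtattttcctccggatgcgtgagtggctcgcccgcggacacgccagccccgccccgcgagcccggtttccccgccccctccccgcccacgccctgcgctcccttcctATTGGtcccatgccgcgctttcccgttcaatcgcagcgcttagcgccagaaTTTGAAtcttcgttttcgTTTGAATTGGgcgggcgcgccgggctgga
ASPM, chr1:197146670-197146919 (minus strand): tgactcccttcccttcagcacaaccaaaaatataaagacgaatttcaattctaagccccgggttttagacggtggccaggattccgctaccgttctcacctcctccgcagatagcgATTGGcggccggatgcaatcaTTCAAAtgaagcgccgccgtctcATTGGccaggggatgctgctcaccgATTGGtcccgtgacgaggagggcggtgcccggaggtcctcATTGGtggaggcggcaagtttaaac
CDC20, chr1:43358731-43358980 (plus strand): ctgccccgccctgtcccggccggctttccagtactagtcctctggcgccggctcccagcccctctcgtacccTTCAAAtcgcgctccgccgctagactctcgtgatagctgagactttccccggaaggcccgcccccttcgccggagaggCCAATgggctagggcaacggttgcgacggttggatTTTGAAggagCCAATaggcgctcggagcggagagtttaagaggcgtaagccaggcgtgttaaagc
The MKI67 promoter, on the minus strand of chromosome 10, held 2 CHR matches and 2 CCAAT boxes, and its last 2 matches overlap in a single run of capitals. CDC20, on the plus strand of chromosome 1, held 2 of each. ASPM, on the minus strand of chromosome 1, had 4 CCAAT boxes with 1 CHR match on the opposite strand, and BUB1, on the minus strand of chromosome 2, had 2 CCAAT boxes and no match to these CHR letters.

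A promoter was listed for 39 of the 46 members, and those of UBE2C, TTK, AURKA, TPX2, FOXM1, BIRC5 and BUB3 were not analysed here. A CHR match lay in 21 of the 39, or 53.8%, beside 14.6% of all 27305 promoters of this length in the table and 9.82% of the 12270 promoters of genes tested. A CCAAT box lay in 30 members, or 76.9%, beside 33.0% and 34.6%. Both motifs were present in 19 members, or 48.7%, beside 5.24% and 3.92%. Of the 9 listed promoters of members that were higher at H1R6 than in NC, 7 held a CHR match and 9 a CCAAT box. Of the 2 that were lower at H1R6, KIF4A held both motifs and CDC25B neither. Of the 27 tested members with a listed promoter that were not called at H1R6, 12 held a CHR match and 19 a CCAAT box. A match is a run of letters and was not tested for binding.

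**Figure D1:**
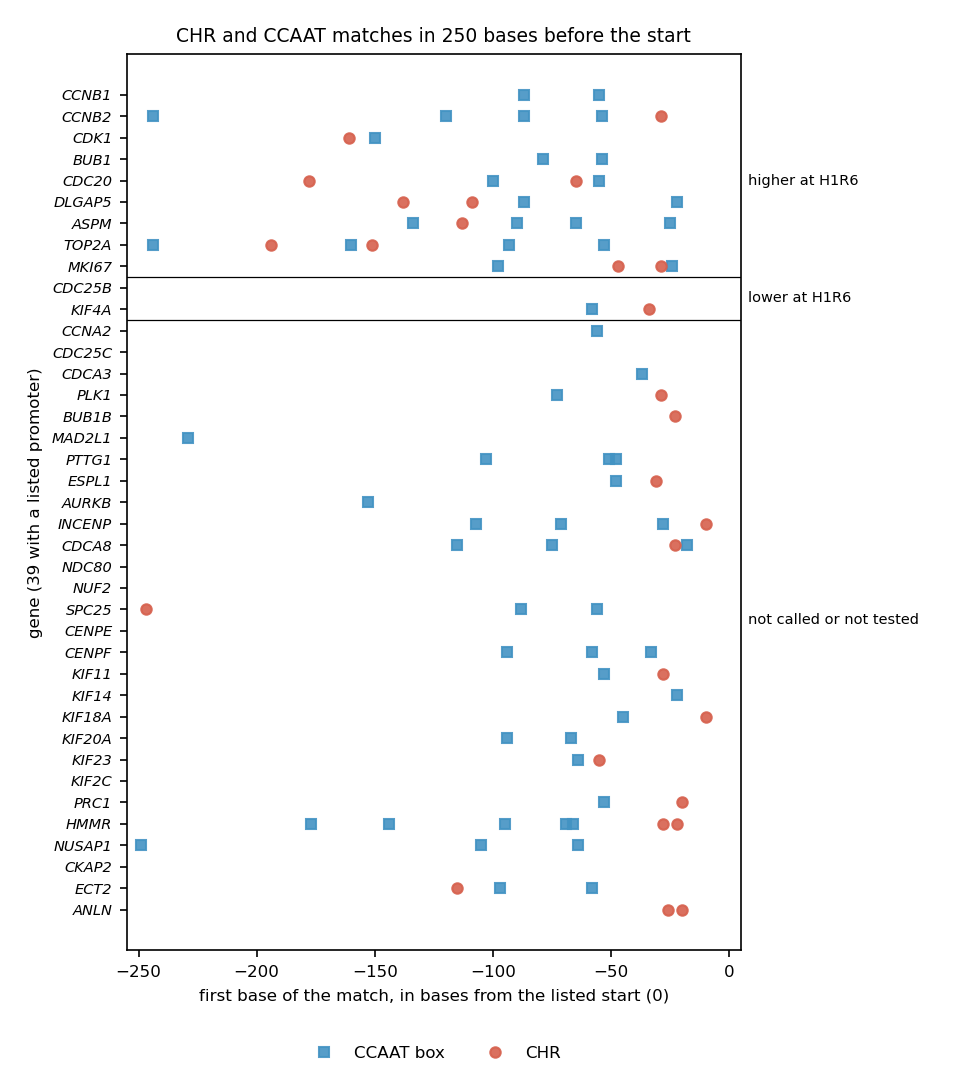
Distance of CHR matches (circles) and CCAAT boxes (squares) from the listed start in 39 promoters, one gene per line, grouped by the call at H1R6 against NC. Matches of both kinds crowd near the start, and all 9 promoters of genes higher at H1R6 carry a CCAAT box.

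After the 1 h at 43 °C a single member, KIF23, had fallen, and most differences from NC came during recovery. One hour into recovery CDC20 and BUB1 had risen and HMMR had fallen, and at 6 h MKI67, ASPM, CCNB1 and CDK1 stood above NC together with CDC20 and BUB1. In the single H1R18 library, 7 of the 11 members called higher at 6 h were called lower than at 6 h. This overlap was not counted over all genes tested. Both comparisons use the same H1R6 libraries, so a high value there favours both calls. The changes were small, the largest log2 fold change of a called member against NC being -0.66 (HMMR at H1R1), and 24 of the 45 members were called in at least 1 comparison with NC, beside 30.2% of all genes tested. Members were more highly expressed than all genes tested (median 21.5 beside 3.66 RPKM in NC). Small changes are harder to call at low counts, and the shares here and below were not matched for expression.

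A member was called when its adjusted p (edgeR quasi-likelihood test, Benjamini-Hochberg over all genes tested) was under 0.05. At H1, 0 of 45 members were higher and 1 was lower than in NC, against 3.43% of all genes tested higher and 1.77% lower. No member was higher at an unadjusted p under 0.05 either, and DESeq2 also called 0 higher. At H1R1 the counts were 7 higher and 5 lower, against 10.7% and 9.53% of all genes. With scaling by library size alone they were 3 higher and 5 lower, and with DESeq2 4 and 2. The higher numbered 4 without either H1R1 library, and the lower 2 without NC replicate 1 or H1R1 replicate 1 and 1 without NC replicate 2. At H1R6, 11 members were higher and 2 lower, against 3% and 4.03% of all genes. DESeq2 called 7 higher and 0 lower there, and with 1 library left out the higher numbered 4 without H1R6 replicate 2, 7 without NC replicate 1, H1 replicate 1 or H1R6 replicate 1, and 8 to 10 without any other. The 2 lower became 1 without NC replicate 2 and 0 without NC replicate 1 or either H1R6 library. At H1R18, 4 were higher and 3 lower, against 4.58% and 6.43% of all genes, with scaling by library size alone 7 higher and 2 lower, and with DESeq2 or without NC replicate 1 the higher numbered 1. With all libraries, 24.4% of members were raised at H1R6, and at H1R1 15.6% were raised and 11.1% lowered, the latter shares being nearer to those of all genes. The members had a median log2 fold change against NC of -0.07 (H1), 0.14 (H1R1), 0.20 (H1R6) and 0.06 (H1R18), and that of all genes tested was between -0.03 and -0.01. These 4 comparisons share the NC libraries. Whether same-condition libraries were separate cultures is not in the labels, so p-values measure the spread between these libraries, which may be technical.

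**Figure D2:**
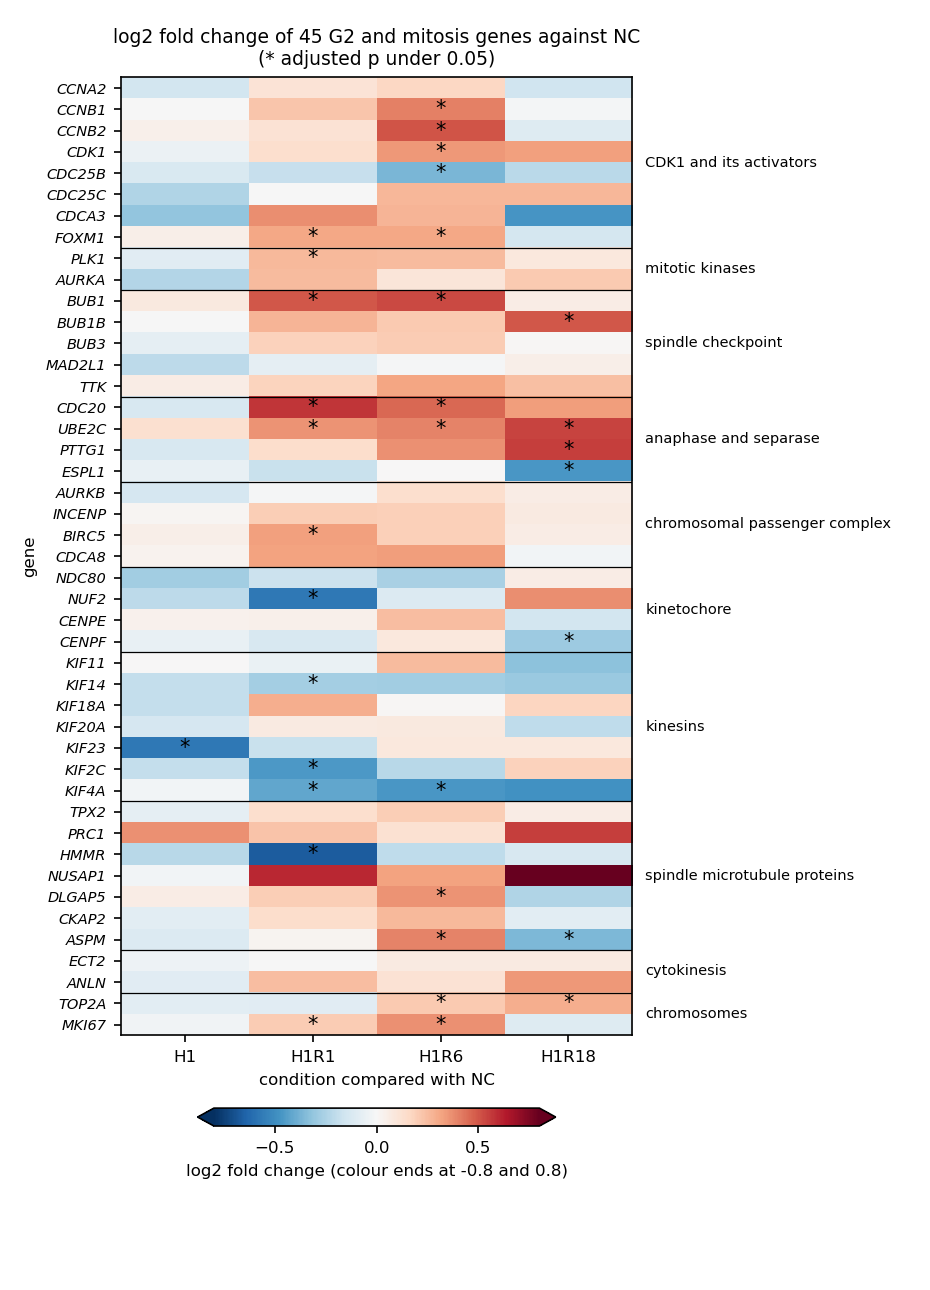
Log2 fold change against NC of the 45 tested members (lines, grouped by role) at H1, H1R1, H1R6 and H1R18 (columns), with an asterisk where the adjusted p was under 0.05. Colour is weak at H1, where KIF23 alone is marked, and red prevails at H1R6, where 11 members are marked as higher and KIF4A and CDC25B as lower. The dark red cell of NUSAP1 at H1R18 goes beyond the colour range and rests on few counts.

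Between consecutive times, 10 members rose from H1 to H1R1 and 2 fell, against 6.35% and 5.08% of all genes tested. The 10 became 6 with scaling by library size alone, 3 and 4 without H1 replicate 1 and 2, and 5 without H1R1 replicate 1. The 2 that fell became 0 with DESeq2 or without either H1 library and 1 without either library of H1R1 or H1R6. From H1R1 to H1R6, 4 rose and 0 fell, against 6.43% and 8.93%. The 4 became 12 with scaling by library size alone, 8 with upper-quartile scaling, halved counts or NC replicate 1 left out, and 2 without H1R6 replicate 2. No member fell at an unadjusted p under 0.05 over that interval, and DESeq2 called 0 lower. From H1R6 to H1R18, 0 rose and 12 fell, against 6.28% and 7.65% of all genes. Over that last interval 3 members were higher at an unadjusted p under 0.05, and DESeq2 called 0 higher. ASPM fell most, followed by CDCA3, CCNB2, DLGAP5, KIF11, BUB1, MKI67, ESPL1, FOXM1, CCNB1, CENPE and CENPF. Of the 11 members above NC at H1R6, 7 were among these 12, and both comparisons use the same H1R6 libraries. The same overlap over all genes was not counted. BUB1, CDC20, FOXM1, MKI67 and UBE2C were called above NC at both H1R1 and H1R6, and KIF4A was called below NC at both. These comparisons share the NC libraries, and calls at both times were not counted over all genes.

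The 8 genes grouped under CDK1 and its activators also include FOXM1 and CDCA3. Of these 8, 1 rose at H1R1, near the 10.7% of all genes tested. At H1R6 4 rose and 1 fell, against 3% and 4.03% of all genes tested. CCNB1, which encodes cyclin B1, stood at 108 and 133 CPM (NC), 124 and 115 (H1), 148 and 132 (H1R1), 156 and 162 (H1R6) and 119 (H1R18). Both H1R6 libraries were above both NC libraries, while those of H1 and H1R1 overlapped NC. At H1R6 the log2 fold change was 0.40 (adjusted p = 0.0083, SE 0.10). From there CCNB1 fell to H1R18 by 0.42 on the log2 scale. CDK1, the catalytic partner of the B cyclins, stood at 106 and 109 CPM (NC), 107 and 101 (H1), 111 and 126 (H1R1), 133 and 139 (H1R6) and 134 (H1R18). The libraries of H1R1, H1R6 and H1R18 were all above both NC libraries, and the rise at H1R6, with a log2 fold change of 0.34 (adjusted p = 0.0204, SE 0.09), passed the test. CCNB2, the gene of cyclin B2, had a log2 fold change of 0.50 (adjusted p = 0.0452, SE 0.16), and FOXM1, which encodes the transcription factor that drives G2 genes, had one of 0.31 at H1R1 and 0.31 at H1R6. CDC25B, a phosphatase that activates CDK1, went the other way and fell from 119 and 105 CPM (NC) to 80.7 and 93.0 (H1R6), with a log2 fold change of -0.37 (adjusted p = 0.0222, SE 0.10). CDCA3, a factor in the degradation of the CDK1 inhibitor WEE1, was not called against NC. It stood at 39.97 and 44.1 CPM (NC), 33.2 and 34.1 (H1), 56.5 and 51.6 (H1R1), 48.9 and 52.3 (H1R6) and 30.3 (H1R18). It rose from H1 to H1R1 and fell from H1R6 to H1R18, with log2 fold changes of 0.69 and -0.74. Cyclin A2 (CCNA2) and the phosphatase CDC25C had log2 fold changes of 0.16 and 0.27 at H1R6 and were not called. With 1 library left out the test was not passed by CCNB1 and CDK1 at H1R6 (NC replicate 1 or H1R6 replicate 2, adjusted p up to 0.174 and 0.152), CCNB2 at H1R6 (either NC, H1 or H1R6 library, adjusted p 0.0543 to 0.309) and FOXM1 at H1R6 (H1 replicate 1 or either NC or H1R6 library, adjusted p 0.06 to 0.233). The test was no longer passed, once a library was dropped, by FOXM1 at H1R1 (either NC or H1R1 library, adjusted p 0.0528 to 0.0867), CDC25B at H1R6 (NC replicate 1 or either H1R6 library, adjusted p 0.0501 to 0.332) and CCNB1 from H1R6 to H1R18 (H1R6 replicate 2, adjusted p = 0.106).

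Of the mitotic kinases PLK1 and AURKA, PLK1 was called against NC. PLK1, the kinase that helps to activate CDK1 and to build the spindle, stood at 149.7 and 122 CPM (NC), 131 and 125 (H1), 164 and 162 (H1R1), 162 and 162 (H1R6) and 144 (H1R18). All 4 libraries of H1R1 and H1R6 were above both NC libraries. The log2 fold change was 0.26 (adjusted p = 0.0476, SE 0.09) at H1R1 and 0.25 at H1R6, where it was not called. AURKA, which acts at centrosomes, was at 63.8 and 74.1 CPM (NC), 57.0 and 59.5 (H1) and 89.7 and 72.9 (H1R1). Its log2 fold change at H1R1 was 0.25 (adjusted p = 0.146, SE 0.12) against NC, which did not pass, and 0.49 (adjusted p = 0.0061, SE 0.12) against H1, which did. Dropping a library ended the call of PLK1 at H1R1 (NC replicate 2 or either H1, H1R1 or H1R6 library, adjusted p 0.0572 to 0.416) and AURKA from H1 to H1R1 (H1R1 replicate 1 or either H1 library, adjusted p 0.0584 to 0.219).

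Among the 5 spindle checkpoint genes BUB1 changed most. This kinase recruits checkpoint proteins to kinetochores. BUB1 (ENSG00000169679, chr2:110637528-110678063 of GRCh38, minus strand) stood at 132 and 119.8 CPM (NC), 129 and 137 (H1), 176 and 180.3 (H1R1), 188 and 176 (H1R6) and 131 (H1R18). The 4 libraries at 1 h and 6 h of recovery lay above every other library. The log2 fold change against NC was 0.50 (adjusted p = 0.000111, SE 0.09) at H1R1 and 0.53 (adjusted p = 0.000135, SE 0.09) at H1R6. From H1R6 to H1R18 it was -0.47 (adjusted p = 0.00376, SE 0.11), and at H1R18 BUB1 was within the NC libraries. BUB1B, which encodes the checkpoint protein BUBR1, stood at 57.3 and 62.4 CPM (NC), 72.0 and 72.2 (H1R1), 68.7 and 69.4 (H1R6) and 84.2 (H1R18), the last being the highest of its 9 values. Its call at H1R18 came with a log2 fold change of 0.50 (adjusted p = 0.0201, SE 0.14). The other checkpoint genes, MAD2L1, BUB3 and the kinase TTK, were not called in any comparison, and their log2 fold changes at H1R6 were -0.01, 0.20 and 0.32. Leaving out 1 library ended the call of BUB1B at H1R18 (NC replicate 1, adjusted p = 0.0789).

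Of the 4 genes of anaphase and separase, CDC20 had the largest rise of any member called against NC at H1R1. CDC20 (ENSG00000117399, chr1:43358981-43363203 of GRCh38, plus strand) encodes the activator of the anaphase-promoting complex, the target of the checkpoint. It stood at 102 and 95.5 CPM (NC), 85.2 and 95.7 (H1), 155 and 139 (H1R1), 135 and 138 (H1R6) and 125 (H1R18). Every recovery library was above every NC and H1 library. The log2 fold change against NC was 0.57 (adjusted p = 5.05e-05, SE 0.10) at H1R1 and 0.46 (adjusted p = 0.00199, SE 0.10) at H1R6, and from H1 to H1R1 it was 0.70 (adjusted p = 5.81e-06, SE 0.09). At H1R18 it was 0.33 (adjusted p = 0.0734, SE 0.12) and did not pass. UBE2C, the ubiquitin-conjugating enzyme of the same complex, stood at 66.7 and 56.4 CPM (NC), 78.2 and 80.6 (H1R1), 70.1 and 92.8 (H1R6) and 89.8 (H1R18). It was called higher at all 3 recovery times, with log2 fold changes of 0.36, 0.40 and 0.54, and its H1R6 libraries lay far apart. At H1R18 separase and its inhibitor differed from NC in opposite directions. PTTG1, which encodes securin, the inhibitor, was at 36.7 and 41.2 CPM (NC) and 57.0 (H1R18), with a log2 fold change of 0.55 (adjusted p = 0.0368, SE 0.17). Earlier in recovery PTTG1 stood at 42.4 and 43.4 CPM (H1R1) and 49.5 and 50.8 (H1R6), all above both NC libraries. From H1R6 to H1R18 its log2 fold change was 0.18, and it was not called. ESPL1, which encodes separase, the protease that cuts cohesin, was at 173 and 158 CPM (NC), 161 and 170.4 (H1R6) and 119.8 (H1R18). Its log2 fold change was -0.47 (adjusted p = 0.0063, SE 0.11) against NC and -0.47 (adjusted p = 0.00468, SE 0.11) against H1R6. With 1 library left out the test was not passed by UBE2C at H1R1 (NC replicate 2 or either H1 or H1R1 library, adjusted p 0.0562 to 0.264), UBE2C at H1R6 (NC replicate 2, H1R6 replicate 2 or either H1 or H1R1 library, adjusted p 0.0518 to 0.573) and UBE2C at H1R18 (NC replicate 2, adjusted p = 0.108). The test was no longer passed, once a library was dropped, by PTTG1 and ESPL1 at H1R18 (NC replicate 1, adjusted p up to 0.13 and 0.0572).

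**Figure D3:**
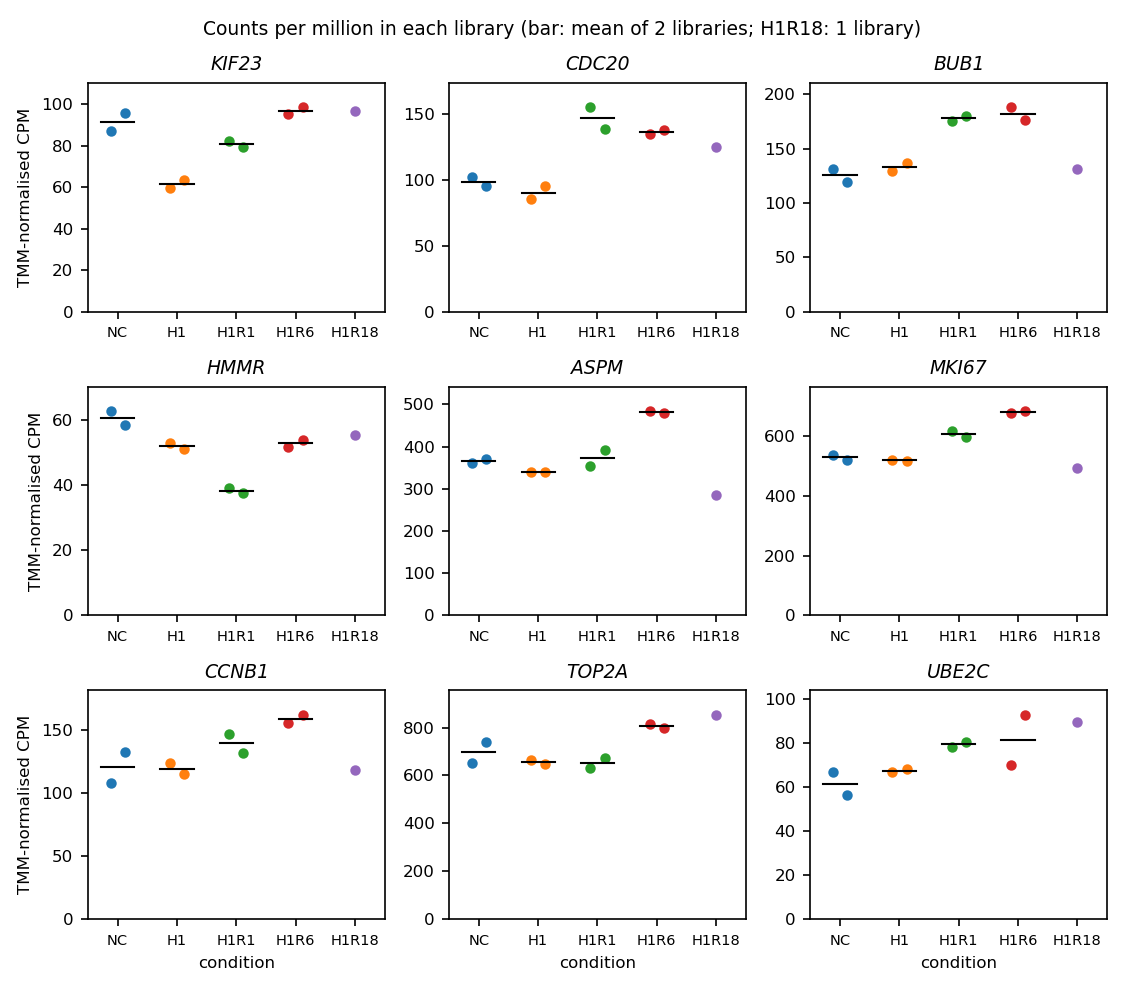
TMM-normalised CPM (vertical axes, from 0) of 9 members in each library, with points for libraries and a bar for the mean of 2. CDC20 and BUB1 step up at H1R1, ASPM and MKI67 peak at H1R6, KIF23 dips at H1 and HMMR at H1R1, and H1R18 is a single library.

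In the chromosomal passenger complex, which corrects faulty attachments and later acts in cytokinesis, BIRC5 rose. BIRC5, which encodes survivin, stood at 155 and 153 CPM (NC), 160.1 and 158 (H1), 185 and 202 (H1R1), 180.0 and 172 (H1R6) and 161 (H1R18). Every heated library was above both NC libraries, and the log2 fold change at H1R1 was 0.33 (adjusted p = 0.00557, SE 0.08). CDCA8, the borealin gene, was at 51.0 and 51.1 CPM (NC), 64.5 and 62.8 (H1R1) and 63.9 and 64.7 (H1R6). Its log2 fold change at H1R6 was 0.33 (adjusted p = 0.134, SE 0.13) and did not pass the test, although the libraries did not overlap. The kinase gene AURKB and the scaffold gene INCENP had log2 fold changes of 0.13 and 0.19 at H1R6 and were not called in any comparison. Dropping a library ended the call of BIRC5 at H1R1 (H1R1 replicate 2, adjusted p = 0.0654).

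The kinetochore genes called against NC were NUF2 at H1R1 and CENPF at H1R18, both lower. NUF2, whose protein joins NDC80 in binding microtubules, stood at 45.1 and 44.1 CPM (NC), 35.7 and 41.5 (H1), 25.2 and 35.6 (H1R1), 37.1 and 45.7 (H1R6) and 57.7 (H1R18). Both H1R1 libraries were below NC, the log2 fold change was -0.57 (adjusted p = 0.0155, SE 0.17), and the value at H1R18 was the highest of the 9. CENPF, a large protein of the outer kinetochore, stood at 509.6 and 562 CPM (NC), 586 and 547 (H1R6) and 437 (H1R18). Its log2 fold change at H1R18 was -0.29 (adjusted p = 0.0404, SE 0.09) against NC and -0.37 against H1R6. The call of CENPF at H1R18 against NC was kept in 4 of 17 alternatives and ended with each of the other scalings and with DESeq2. The kinesin gene CENPE fell from H1R6 to H1R18 by 0.39 on the log2 scale. NDC80 was not called in any comparison and had a log2 fold change of -0.26 at H1R6. Leaving out 1 library ended the call of NUF2 at H1R1 (H1R1 replicate 1 or either NC library, adjusted p 0.0525 to 0.32), CENPF at H1R18 (NC replicate 2 or either H1 or H1R6 library, adjusted p 0.065 to 0.216) and CENPF from H1R6 to H1R18 (H1R6 replicate 1, adjusted p = 0.0522). With 1 library left out the test was not passed by CENPE from H1R6 to H1R18 (either H1R6 library, adjusted p 0.0536 to 0.0875).

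The 7 kinesins, motors of the spindle and midzone, were called only as lower in comparisons with NC. KIF23 (ENSG00000137807, chr15:69414246-69448427 of GRCh38, plus strand) encodes the motor of the centralspindlin complex, which sets up the cleavage furrow. It stood at 87.3 and 95.8 CPM (NC), 59.5 and 63.2 (H1), 82.2 and 79.2 (H1R1), 95.0 and 98.4 (H1R6) and 96.7 (H1R18). The H1 libraries were the lowest of the 9, and by H1R6 the level was within or above that of NC. The log2 fold change was -0.57 (adjusted p = 0.0006, SE 0.11) at H1, and 0.40 (adjusted p = 0.0124, SE 0.11) from H1 to H1R1. KIF2C, which depolymerises microtubules at kinetochores, was at 76.3 and 95.0 CPM (NC), 58.6 and 65.6 (H1R1), 72.2 and 73.7 (H1R6) and 97.0 (H1R18), with a log2 fold change of -0.46 (adjusted p = 0.00587, SE 0.12) at H1R1. Both H1R1 and both H1R6 libraries were below both NC libraries. KIF4A, a chromosome-bound motor, had log2 fold changes of -0.42 at H1R1 and -0.47 at H1R6, and KIF14 had one of -0.27 at H1R1. KIF11, which pushes spindle poles apart, was not called against NC but rose from H1R1 to H1R6, with a log2 fold change of 0.31, and fell from H1R6 to H1R18 by 0.58 on the log2 scale. KIF18A rose from H1 to H1R1, with a log2 fold change of 0.48, and KIF20A was not called in any comparison. The test was no longer passed, once a library was dropped, by KIF23 from H1 to H1R1 (H1R1 replicate 1 or either H1 library, adjusted p 0.0708 to 0.137), KIF2C at H1R1 (NC replicate 2 or H1R1 replicate 1, adjusted p 0.107 to 0.142) and KIF4A at H1R1 (H1R1 replicate 2 or either NC library, adjusted p 0.0754 to 0.299). Dropping a library ended the call of KIF4A at H1R6 (either NC or H1R6 library, adjusted p 0.0815 to 0.261), KIF14 at H1R1 (H1R1 replicate 1 or either NC, H1 or H1R6 library, adjusted p 0.0542 to 0.347) and KIF11 from H1R1 to H1R6 (H1R1 replicate 2 or either H1R6 library, adjusted p 0.0632 to 0.122). Leaving out 1 library ended the call of KIF18A from H1 to H1R1 (either H1, H1R1 or H1R6 library, adjusted p 0.056 to 0.373).

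Among the spindle microtubule proteins HMMR had the largest fall of any called member against NC, and ASPM rose at H1R6 before falling below NC. HMMR (ENSG00000072571, chr5:163460203-163491941 of GRCh38, plus strand) encodes a microtubule-bound protein of spindle poles. It stood at 62.6 and 58.4 CPM (NC), 52.8 and 51.0 (H1), 38.9 and 37.5 (H1R1), 51.6 and 53.9 (H1R6) and 55.4 (H1R18). Every heated library was below both NC libraries and the H1R1 libraries were lowest. At H1R1 its log2 fold change was -0.66 (adjusted p = 0.000438, SE 0.13), and from H1R1 to H1R6 it was 0.46 (adjusted p = 0.0143, SE 0.13). ASPM (ENSG00000066279, chr1:197084121-197146694 of GRCh38, minus strand) encodes a protein of spindle poles that is mutated in primary microcephaly. It stood at 361 and 372 CPM (NC), 339.9 and 339 (H1), 354 and 392 (H1R1), 484 and 479 (H1R6) and 285 (H1R18). The H1R6 libraries were the highest and the H1R18 library the lowest of the 9. Its log2 fold change was 0.40 (adjusted p = 0.000367, SE 0.07) at H1R6, -0.36 (adjusted p = 0.00788, SE 0.09) at H1R18, and -0.76 (adjusted p = 5.53e-07, SE 0.09) between these times. With only the conditions compared in the fit, the call of ASPM at H1R18 against NC ended (adjusted p = 0.0526). DLGAP5, a microtubule-stabilising protein, had a log2 fold change of 0.36 (adjusted p = 0.0303, SE 0.10) at H1R6 and fell to H1R18 by 0.60 on the log2 scale. TPX2, CKAP2, PRC1 and NUSAP1 were not called in any comparison, and TPX2, which activates AURKA, lay between 182 and 225 CPM. With 1 library left out the test was not passed by HMMR from H1R1 to H1R6 (H1R6 replicate 2 or either H1R1 library, adjusted p 0.0668 to 0.0847) and DLGAP5 at H1R6 (either NC or H1R6 library, adjusted p 0.0503 to 0.197).

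The cytokinesis genes ECT2 and ANLN were not called against NC. ECT2, the activator of RhoA at the cleavage furrow, stood at 109.5 and 105 CPM (NC), 105 and 103.9 (H1), 109.6 and 104.1 (H1R1), 109.9 and 116 (H1R6) and 113 (H1R18), and its log2 fold change at H1R6 was 0.07 (adjusted p = 0.742, SE 0.09). All 9 values lay between 103.9 and 116 CPM. ANLN, which encodes the furrow scaffold anillin, was at 117 and 141 CPM (NC) and 163 (H1R18), with a log2 fold change of 0.35 (adjusted p = 0.074, SE 0.13), and rose from H1 to H1R1 (0.34). The test was no longer passed, once a library was dropped, by ANLN from H1 to H1R1 (H1R1 replicate 2 or either H1 library, adjusted p 0.081 to 0.287).

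On chromosomes, MKI67 and TOP2A rose at H1R6. MKI67 (ENSG00000148773, chr10:128096659-128126423 of GRCh38, minus strand) encodes the proliferation marker Ki-67, which coats mitotic chromosomes. It stood at 539 and 519.5 CPM (NC), 521 and 518 (H1), 619.6 and 597 (H1R1), 679.8 and 684 (H1R6) and 493 (H1R18). The 4 libraries of H1R1 and H1R6 were above all the others. Ki-67 transcripts changed by a log2 fold change of 0.20 (adjusted p = 0.025, SE 0.06) at H1R1, 0.37 (adjusted p = 0.00028, SE 0.06) at H1R6 and -0.47 (adjusted p = 0.000114, SE 0.08) from H1R6 to H1R18. TOP2A, the topoisomerase that untangles chromosomes, stood at 653 and 741 CPM (NC), 667 and 646 (H1), 633 and 672 (H1R1), 815 and 797 (H1R6) and 853 (H1R18). It was still above both NC libraries at H1R18, and its log2 fold change was 0.21 at H1R6, 0.29 (adjusted p = 0.0158, SE 0.08) at H1R18 and 0.30 (adjusted p = 0.00155, SE 0.07) from H1R1 to H1R6. Dropping a library ended the call of MKI67 at H1R1 (NC replicate 2 or H1R1 replicate 1, adjusted p 0.102 to 0.148), TOP2A at H1R6 (NC replicate 1 or either H1 or H1R6 library, adjusted p 0.0692 to 0.305) and TOP2A at H1R18 (NC replicate 1, adjusted p = 0.0859).

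Exon length moved with the values at H1R18. Over the 44 tested members apart from NUSAP1, Spearman's rho of log2 fold change against NC with exon length was -0.33 at H1R18. It was -0.17 at H1R6, -0.18 at H1R1 and 0.10 at H1. Over the 11747 more highly expressed of the genes tested it was 0.12 at H1R18, with the opposite sign. At the other times these genes had -0.09 (H1R6), -0.07 (H1R1) and 0.07 (H1). These are descriptions across genes that share the same libraries, and the part of transcript length in the result was not tested.

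Other genes of the same pathway, from lists of G2 and mitosis genes that are no members, were counted in the same way. Of 51 tested, 2 were higher and 4 lower at H1 (3.92% and 7.84%, against 3.43% and 1.77% of all genes tested). At H1R1 7 were higher and 6 lower (13.7% and 11.8%, against 10.7% and 9.53%), and at H1R6 2 and 1 (3.92% and 1.96%, against 3% and 4.03%), so that both counts lay near those of all genes. At H1R18 the counts were 5 and 2 (9.80% and 3.92%, against 4.58% and 6.43%). WEE1, the kinase that inhibits CDK1, rose with log2 fold changes of 0.82 (adjusted p = 9.06e-07, SE 0.10) at H1 and 1.10 (adjusted p = 8.11e-10, SE 0.10) at H1R1. CKS2, a small CDK-binding protein, rose by 0.47 at H1, 1.04 at H1R1 and 1.09 at H1R18 on the log2 scale. Neither WEE1 nor CKS2 was called at H1R6, where their log2 fold changes were 0.08 and 0.31. LMNB1, which encodes lamin B1, was called lower at H1R6 and in the single H1R18 library, with log2 fold changes of -0.28 and -1.05.

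Of the 12 DREAM, MuvB and B-MYB factors, which repress and then activate genes of this class, 4 were higher and 2 lower at H1R1 (33.3% and 16.7%, against 10.7% and 9.53% of all genes tested). LIN54, the subunit that binds the CHR, had a log2 fold change of 0.55 (adjusted p = 0.000984, SE 0.12) there. RBL1 and RBL2, the p107 and p130 pocket proteins of DREAM, fell at H1R1, with log2 fold changes of -0.57 (adjusted p = 0.000136, SE 0.10) and -0.68 (adjusted p = 5.54e-05, SE 0.12). Of the 12, 1 was lower at H1R6 (8.33% against 4.03%) and 2 at H1R18 (16.7% against 6.43%). Of 16 subunits of the anaphase-promoting complex, whose activator CDC20 rose, 2 were lower at H1R1 (12.5%, near the 9.53% of all genes), 1 at H1R6 (6.25% against 4.03%) and 2 at H1R18 (12.5% against 6.43%). ANAPC16 was lower at H1R1, H1R6 and H1R18, by log2 fold changes of -0.68, -0.49 and -0.77, and ANAPC4 was lower at H1R1 (-0.54) and ANAPC1 at H1R18 (-0.38).

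**Figure D4:**
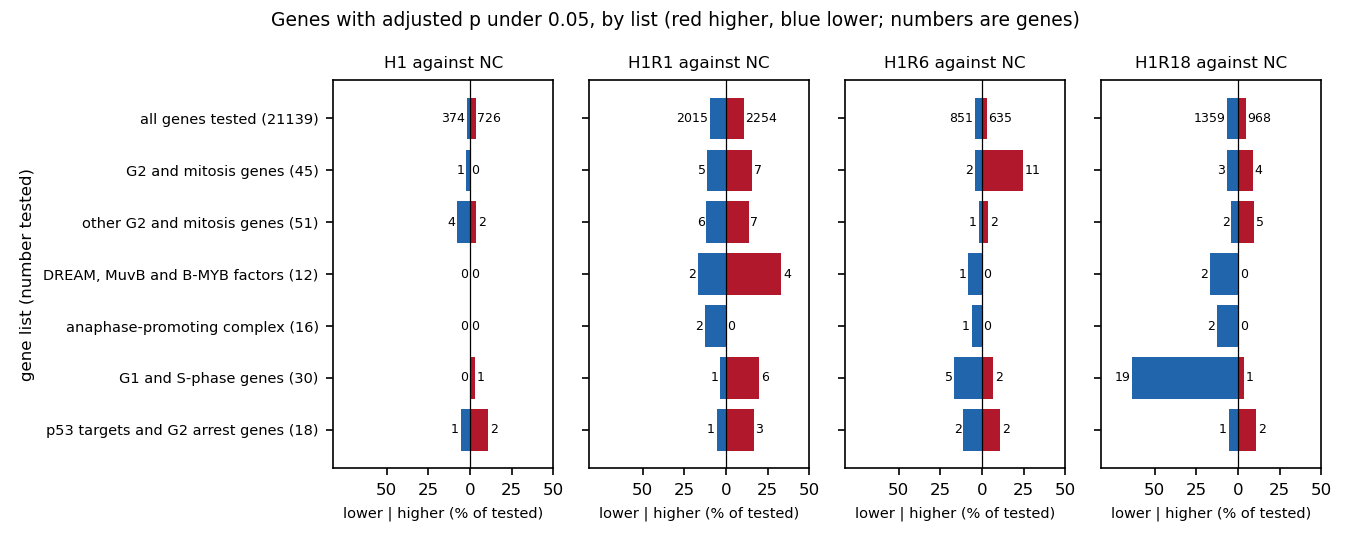
Percentage of tested genes called higher (red, right) and lower (blue, left) than NC at the 4 later conditions, for all genes tested, the members and 5 other lists, with the number of genes beside each bar. The bar of the members reaches furthest to the right at H1R6 (11 of 45), and that of the G1 and S-phase genes furthest to the left at H1R18 (19 of 30).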

How the data were processed

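Total RNA of HEK293T cells, with ribosomal RNA removed, was sequenced in 9 libraries, grouped by the treatment in the labels. The authors deposited counts per gene and library with exon lengths. Per the file headers and the submitters' processing notes, reads were trimmed with cutadapt 4.1, aligned with HISAT2 2.2.1 and counted on Ensembl 104 exons (GRCh38) by featureCounts 2.0.2, each read of a pair alone, without strand, and without reads that fit several places or genes. The notes also list DESeq2 1.38.3 without its role, and the study's methods state no design for the RNA-seq test.

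Genes passing filterByExpr (minimum count 10, minimum total 15) were scaled by TMM and fitted by edgeR 4.0.16's quasi-likelihood test (R 4.3.3, limma 3.58.1) over all 9 libraries, with Benjamini-Hochberg adjustment over 21139 genes. The SE is the log2 fold change divided by the square root of F. CPM are TMM-normalised and RPKM use the deposited exon length. The common coefficient of variation was 0.0905. Symbols were matched by gene identifier, and promoters by symbol. The fit was tested on simulated data. Alternatives were other scalings, filters, sample sets, DESeq2 1.42.0, halved counts (both reads of a pair can be counted), a replicate block and each library left out. Members, lists and the naming rule (all members by role, with full statistics for the 2 of each role with the smallest p against NC, and 3 genes of each other list) were chosen with earlier results of these data known. Counts were listed for 9 libraries, between 3814195 and 6221613 in all, and this depth limits the precision of the rarer transcripts.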

Additional observations from a re-analysis of the deposited data

Results flagged for a closer look

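The members below differed between consecutive conditions by a test of that difference (edgeR quasi-likelihood, adjusted p under 0.05), which is the same as a test of whether their differences from NC were unequal. The values are log2 fold changes of the later against the earlier condition. From H1 to H1R1, CDC20 (0.70), CDCA3 (0.69), AURKA (0.49), KIF18A (0.48), BUB1 (0.42), KIF23 (0.40), PLK1 (0.35), ANLN (0.34), BIRC5 (0.28) and MKI67 (0.23) rose, while HMMR (-0.44) and KIF4A (-0.39) fell. Leaving out 1 library ended the call of HMMR (either H1 or H1R1 library, adjusted p 0.0949 to 0.154), ANLN and BIRC5 (H1R1 replicate 2 or either H1 library, adjusted p up to 0.287 and 0.192) and KIF4A (H1R1 replicate 2 or either H1 or H1R6 library, adjusted p 0.0526 to 0.429). With 1 library left out the test was not passed by KIF18A (either H1, H1R1 or H1R6 library, adjusted p 0.056 to 0.373) and MKI67, KIF23, PLK1 and AURKA (H1R1 replicate 1 or either H1 library, adjusted p up to 0.19, 0.137, 0.168 and 0.219). From H1R1 to H1R6, HMMR (0.46), ASPM (0.37), KIF11 (0.31) and TOP2A (0.30) rose. The test was no longer passed, once a library was dropped, by HMMR (H1R6 replicate 2 or either H1R1 library, adjusted p 0.0668 to 0.0847) and KIF11 (H1R1 replicate 2 or either H1R6 library, adjusted p 0.0632 to 0.122). From H1R6 to the single H1R18 library, ASPM (-0.76), CDCA3 (-0.74), CCNB2 (-0.60), DLGAP5 (-0.60), KIF11 (-0.58), BUB1 (-0.47), MKI67 (-0.47), ESPL1 (-0.47), FOXM1 (-0.45), CCNB1 (-0.42), CENPE (-0.39) and CENPF (-0.37) fell. Dropping a library ended the call of CENPF (H1R6 replicate 1, adjusted p = 0.0522), CENPE (either H1R6 library, adjusted p 0.0536 to 0.0875) and CCNB1 and FOXM1 (H1R6 replicate 2, adjusted p up to 0.106 and 0.0708). Leaving out 1 library ended the call of CCNB2 (H1R6 replicate 2 or either H1 library, adjusted p 0.0553 to 0.202). No condition had enough libraries to look for a single library that stands apart.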

How the results depend on the processing

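Of 61 calls of members, 20 were kept in every alternative in which they were fitted, and in all alternatives each called member kept its direction. Against NC these were 8 of 33, namely KIF23 at H1, CDC20, BUB1 and HMMR at H1R1, and CDC20, BUB1, ASPM and MKI67 at H1R6. DESeq2 ended the calls of NUF2, KIF14, KIF4A, FOXM1, PLK1 and UBE2C at H1R1, of KIF4A, FOXM1, DLGAP5, CCNB2, UBE2C and CDC25B at H1R6, and of CENPF, PTTG1, BUB1B and UBE2C at H1R18. Counts of members called moved more. At H1R1 the 7 higher became 3 with library size only, 4 with upper-quartile scaling and 4 with DESeq2, and 4 to 7 with 1 library left out, and the 5 lower became 2 with DESeq2 and 1 to 5 with 1 library left out. At H1R6 the 11 higher became 7 with DESeq2 and 4 to 10 with 1 library left out, and the 2 lower became 0 with DESeq2, 1 with no filter on low counts and 0 to 2 with 1 library left out. At H1R18 the 4 higher became 7 with library size only, with at least 10 counts in every library and with counts divided by 2, 1 with DESeq2, and 1 to 4 with 1 library left out. The 3 lower became 1 with only the conditions compared.

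From H1 to H1R1 the 10 higher became 6 with library size only and 3 to 12 with 1 library left out, and the 2 lower became 0 with DESeq2, 1 with only the conditions compared and 0 to 2 with 1 library left out. From H1R1 to H1R6 the 4 higher became 12 with library size only, 8 with upper-quartile scaling, at least 10 counts in every library or halved counts, 7 with only the conditions compared, and 2 to 8 with 1 library left out. From H1R6 to H1R18 the 0 higher became 1 with RLE or upper-quartile scaling, at least 10 counts in every library or halved counts, 2 with only the conditions compared, 2 with the replicate block, and 0 to 1 with 1 library left out. The causes were not tested.

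Same-numbered libraries did not deviate together (correlations from -0.0012 to 0.018 over 6 pairs of conditions). With the replicate block members higher and lower numbered 7 and 5 (H1R1), 9 and 2 (H1R6) and 5 and 3 (H1R18). With 2 libraries a condition, or 1, members with few counts limit what a test can show.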

Other observations

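Of 30 G1 and S-phase genes tested, 1 was higher and 0 lower than NC at H1 (edgeR quasi-likelihood test, adjusted p under 0.05), against 3.43% and 1.77% of all genes tested. At H1R1 6 were higher and 1 lower (20.0% and 3.33%, against 10.7% and 9.53%), and at H1R6 2 and 5 (6.67% and 16.7%, against 3% and 4.03%). In the single H1R18 library 1 was higher and 19 lower (3.33% and 63.3%, against 4.58% and 6.43%). At H1, 3 of them were lower at an unadjusted p under 0.05, and the median log2 fold change at H1R18 was -0.38. UHRF1, which maintains DNA methylation at replication, had log2 fold changes of 0.43 at H1R1 (adjusted p = 0.000388, SE 0.09) and -0.95 at H1R18 (adjusted p = 8.38e-07, SE 0.12). CDC6, which loads the replicative helicase, had 0.62 at H1R1 and -0.63 at H1R18, and MCM6, a helicase subunit, had -0.85 at H1R18. None of these values was tested against those of the members.

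Of 18 p53 targets and G2 arrest genes, 2 were higher and 1 lower than NC at H1 (11.1% and 5.56%, against 3.43% and 1.77% of all genes tested), and 3 and 1 at H1R1 (16.7% and 5.56%, against 10.7% and 9.53%). The counts were 2 and 2 at H1R6 (11.1% each, against 3% and 4.03%) and 2 and 1 at H1R18 (11.1% and 5.56%, against 4.58% and 6.43%). GADD45B, a stress-induced gene, rose with log2 fold changes of 1.40 at H1, 2.28 at H1R1 and 1.49 at H1R6. SESN2, which encodes sestrin 2, fell at all 4 times, with log2 fold changes from -0.51 at H1 to -1.65 at H1R18. CCNG1, the cyclin G1 gene, was lower at H1R6, with a log2 fold change of -0.42 (adjusted p = 0.000718, SE 0.08).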
